A study of Oryza sativa with 3 samples.

Results

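osa-MIR1876 and the 3 copies of the MIR820 family, osa-MIR820a, osa-MIR820b and osa-MIR820c, are rice miRNA precursors from which abundant long small RNAs were read. They were taken by name from the precursors in the deposited files, each distinct sequence being counted a single time per library, and they are 4 of the 754 precursors with a read, of which 516 carry a known name. The libraries came from rice (Oryza sativa ssp. japonica cv. Nipponbare) grown in field plots in Nanjing. Ov199 is a transgenic line that overexpresses OsNAR2.1, the partner protein of high-affinity nitrate transporters, from the Ubi promoter (pUbi-OsNAR2.1). RNAi is a transgenic line in which OsNAR2.1 is silenced by RNAi, and its label also bears the tag Ni, which is not explained. NP is the wild type, labelled WT-N. Each line had 1 library, for which leaf, flower and stem RNA of blooming plants was pooled, so no spread between plants could be estimated, and a difference between tissues within the pool could not be seen.

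A miRNA is cut by a Dicer-like enzyme from one arm of a hairpin precursor. The usual product is loaded on an Argonaute protein that cuts or represses a matching mRNA, whereas the long class of miRNAs, which is cut by another Dicer-like enzyme (DCL3 in rice), is known to guide DNA methylation at matching loci. miR1876 is a long miRNA, and the MIR820 precursors lie within CACTA DNA transposons and are known to target the DNA methyltransferase gene OsDRM2. The base at the 5′ end influences which Argonaute protein takes up a small RNA, and long small RNAs that begin with A are typical of AGO4. Length, end position and first base were therefore described beside the level.

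Ov199 had 94154 aligned reads in 7692 distinct sequences, RNAi had 62724 in 6238 and NP had 49341 in 5742. Levels are given as normalized counts, the reads per 1000000 aligned reads of the library, in which 1 read was worth 10.6 in Ov199, 15.9 in RNAi and 20.3 in NP. Where no read was found, up to 3 reads remained possible, which is 31.9 in Ov199, 47.8 in RNAi and 60.8 in NP on this scale. Without molecular identifiers, every interval and limit here covers only counting error. No sequence of the 4 precursors aligned at any other precursor of the files.

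The sequences on which the results turn are shown 5′ to 3′ as deposited, with T for U and with bases 2 to 8, the seed, in capitals. For MIR1876 these were the mature 24 nt form, the 23 nt and 22 nt forms that begin further in, and both 25 nt forms that begin 1 base earlier. Their positions on the precursor stand in the names.

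MIR1876 111-134, 24 nt: aTAAGTGGgtttgtgggctggccc

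MIR1876 112-134, 23 nt: tAAGTGGGtttgtgggctggccc

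MIR1876 113-134, 22 nt: aAGTGGGTttgtgggctggccc

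MIR1876 110-134, 25 nt, exact: tATAAGTGggtttgtgggctggccc

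MIR1876 110-134, 25 nt, mismatch at the first base: gATAAGTGggtttgtgggctggccc

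For MIR820 the leading sequences of each length and place are shown with positions on MIR820b. Where a sequence was also found on MIR820a or MIR820c, it lay 5 positions earlier there. The first 4 stand near the start of the precursor and were found on all 3 copies. The others stand in its last part, where those that begin before position 151 were found on MIR820b and MIR820c only.

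MIR820 15-36, 22 nt: tCGGCCTCgtggatggaccagg

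MIR820 15-35, 21 nt: tCGGCCTCgtggatggaccag

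MIR820 15-37, 23 nt: tCGGCCTCgtggatggaccagga

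MIR820 18-36, 19 nt: gCCTCGTGgatggaccagg

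MIR820 127-150, 24 nt: gTGGAACCttgttaaggtcggaac

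MIR820 131-151, 21 nt, mismatch at the last base: aACCTTGTtaaggtcggaact

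MIR820 141-164, 24 nt: aGGTCGGAacgaactgccttaagg

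MIR820 144-164, 21 nt: tCGGAACGaactgccttaagg

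MIR820 151-174, 24 nt: gAACTGCCttaaggaagtcgatgc

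MIR820 152-175, 24 nt: aACTGCCTtaaggaagtcgatgct

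The 4 precursors together held 4.46% of all aligned reads in Ov199, 5.93% in RNAi and 4.94% in NP. MIR1876 was the larger part, with 3399 reads in Ov199, 3093 in RNAi and 1967 in NP. Its normalized counts were 36100 in Ov199, 49311 in RNAi and 39865 in NP, with 95% exact Poisson intervals of 34897 to 37335, 47589 to 51080 and 38123 to 41667. On this scale the 3 intervals did not overlap, with that of Ov199 below and that of RNAi above that of NP. The order of Ov199 and NP depended on the scale. Relative to the adapter-trimmed reads MIR1876 was at 0.108% in Ov199, 0.122% in RNAi and 0.101% in NP. Among the 516 known precursors MIR1876 ranked 14 in Ov199, 10 in RNAi and 10 in NP by reads, where precursors that share reads each count them.

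The MIR820 copies cannot be separated by most of their reads. Sequences that aligned at all 3 copies made up 65.2% of the family's reads in Ov199, 69.3% in RNAi and 69.3% in NP, with 95% Wilson intervals of 61.8 to 68.4%, 65.6 to 72.7% and 65.0 to 73.3%. A further 25.5%, 19.6% and 18.1% aligned at MIR820b and MIR820c but not at MIR820a. The only reads particular to MIR820a numbered 0 in Ov199, 0 in RNAi and 4 in NP, so a level of that copy on its own could not be obtained. MIR820b alone was matched by 52 reads in Ov199, 53 in RNAi and 24 in NP, and MIR820c alone by 7, 9 and 6.

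With each sequence counted at every copy where it aligned, MIR820a had 538 reads in Ov199, 443 in RNAi and 354 in NP. MIR820b had 778, 611 and 435, and MIR820c had 749, 575 and 440. Since these sums overlap, the family was also counted with each sequence a single time, which gave 801 reads in Ov199, 628 in RNAi and 469 in NP. As normalized counts these were 8507, 10012 and 9505. The family was thus at 0.851% of the aligned reads in Ov199, 1.00% in RNAi and 0.951% in NP, several times below MIR1876 in each library.

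**Figure D1:**
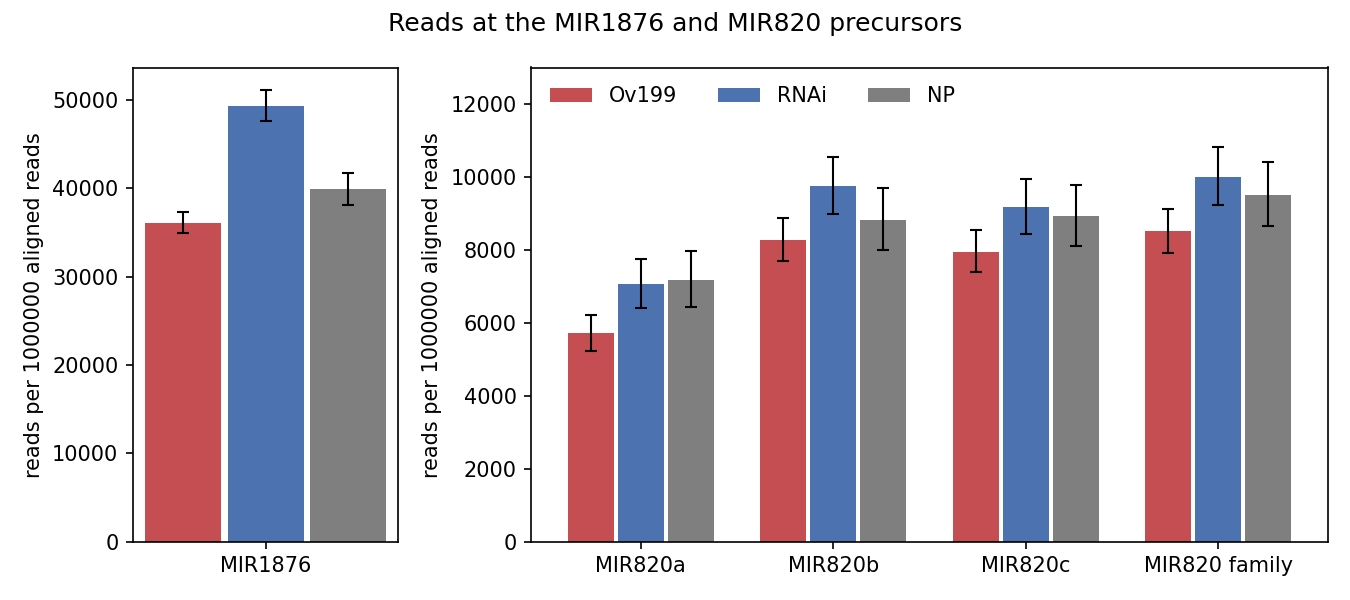
Levels of MIR1876, MIR820a, MIR820b, MIR820c and the MIR820 family counted a single time, as normalized counts (reads per 1000000 aligned reads) in Ov199, RNAi and NP. Bars start at 0 and error bars are 95% exact Poisson intervals of 1 library; MIR1876 in RNAi, at 49311, lies above its bars in Ov199 (36100) and NP (39865), while the intervals of the family overlap between RNAi and NP.

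The first question was whether the level of these long miRNAs differed between libraries of lines with more or less OsNAR2.1. MIR1876 was lower in Ov199 than in NP, at 0.906-fold on the normalized count + 10 scale (95% exact interval of the ratio, 0.856 to 0.958, Fisher's exact test, two-sided, adjusted p = 0.00409). It was higher in RNAi than in NP, at 1.24-fold (1.17 to 1.31, adjusted p = 1.39e-12 by Fisher's exact test). It was higher in RNAi than in Ov199, at 1.37-fold (1.30 to 1.43, adjusted p = 2.32e-35 by Fisher's exact test). The p-values compare the reads of 2 libraries and not the lines. The difference between Ov199 and NP depended on how the libraries were scaled: it was 0.989-fold with edgeR's TMM factors (adjusted p = 0.887 by Fisher's exact test) and 1.07-fold, the other direction, relative to the adapter-trimmed reads (adjusted p = 0.0697 by Fisher's exact test). Both differences of RNAi kept their direction and an adjusted p under 0.05 under every alternative tried.

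For the MIR820 family the corresponding values were 0.895-fold in Ov199 against NP (95% exact interval of the ratio, 0.798 to 1.01, adjusted p = 0.208 by Fisher's exact test) and 1.05-fold in RNAi against NP (0.933 to 1.19, adjusted p = 0.743 by Fisher's exact test). RNAi against Ov199 gave 1.18-fold (1.06 to 1.31, adjusted p = 0.0153 by Fisher's exact test). This last call was lost with TMM (1.04-fold, adjusted p = 0.719 by Fisher's exact test), and relative to the adapter-trimmed reads the value was 0.975-fold, below 1. The single copies, which share most of the reads, ranged from 0.797-fold (MIR820a) to 0.937-fold (MIR820b) for Ov199 against NP. The range was 0.984-fold (MIR820a) to 1.10-fold (MIR820b) for RNAi against NP and 1.15-fold (MIR820c) to 1.24-fold (MIR820a) for RNAi against Ov199.

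None of the 4 precursors was past 2-fold in any of the 3 comparisons. Over all precursors the share past 2-fold was 40.7% for Ov199 against NP, 40.8% for RNAi against NP and 43% for RNAi against Ov199. These shares depend on precursors with few reads, unlike the 4 members. With a pseudocount of 100 in place of 10, 77 precursors in place of 294 were past 2-fold for Ov199 against NP. For RNAi against NP it was 78 in place of 289. By adjusted p, MIR1876 and MIR820a were called lower in Ov199 than in NP, beside 9.56% of all 722 precursors tested. MIR1876 was the only one of the 4 called in RNAi against NP, where 7.76% of 709 precursors were called higher. MIR1876, MIR820a and MIR820b were called higher in RNAi than in Ov199, beside 11.9% of 730 precursors. With TMM the MIR820 calls were lost: MIR820a was 0.870-fold for Ov199 against NP and 1.09-fold for RNAi against Ov199, where MIR820b was 1.04-fold (adjusted p = 0.178, 0.389 and 0.688 by Fisher's exact test). The share of precursors called in either direction was 16.9%, 13% and 19.6% in these comparisons.

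MIR1876 was read almost as a single species. Reads of 24 nt made up 93.3% of its reads in Ov199, 91.4% in RNAi and 92.9% in NP, with 95% Wilson intervals of 92.4 to 94.1%, 90.4 to 92.3% and 91.7 to 94.0%. Over the 3 libraries together the share was 92.5%, and among the 203 known precursors with at least 50 reads only MIR5159, at 93.1%, had a higher one. No read of 21 nt was found in any library, which allowed a share of up to 0.0883% in Ov199, 0.0970% in RNAi and 0.153% in NP. The 22 nt reads numbered 11, 8 and 4, the 23 nt reads 94, 112 and 52, and the 25 nt reads 111, 137 and 79.

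These reads weighed on the long class as a whole. MIR1876 supplied 31.3% of all 24 nt reads that aligned to any precursor in Ov199, 32.9% in RNAi and 28.1% in NP, with 95% Wilson intervals of 30.4 to 32.2%, 31.9 to 33.9% and 27.1 to 29.2%. The family of MIR820 supplied 3.16%, 2.69% and 2.69%. Among all aligned reads, 10.8% in Ov199, 13.7% in RNAi and 13.2% in NP were 24 nt long, and 39.2%, 41.5% and 35.7% were 21 nt long.

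The MIR820 reads were of mixed length. Reads of 24 nt were the most frequent, at 40.1% of the family in Ov199, 36.8% in RNAi and 37.3% in NP, with 95% Wilson intervals of 36.7 to 43.5%, 33.1 to 40.6% and 33.1 to 41.8%. Reads of 22 nt made up 16.7%, 17.5% and 14.9%, and those of 21 nt 8.24%, 5.10% and 5.33%. Both classes were thus present beside the long one in every library, where MIR1876 had next to none. The remaining reads were mainly of 23 nt, with 119 in Ov199, 92 in RNAi and 70 in NP, and of 25 nt, with 79, 85 and 66.

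The 24 nt share within a precursor does not depend on the scaling of the library, so it was also compared between libraries. For MIR1876 it was 1.92 percentage points lower in RNAi than in Ov199 (adjusted p = 0.140, Fisher's exact test over all precursors with at least 10 reads in both libraries). The other differences were -1.53 points in RNAi against NP and 0.388 points in Ov199 against NP, with adjusted p = 0.816 and 1 by Fisher's exact test. For the MIR820 family the adjusted p lay between 0.848 and 1. None of the members was called in this measure, where 1.01% of precursors were called for Ov199 against NP, 0% for RNAi against NP and 1.93% for RNAi against Ov199.

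**Figure D2:**
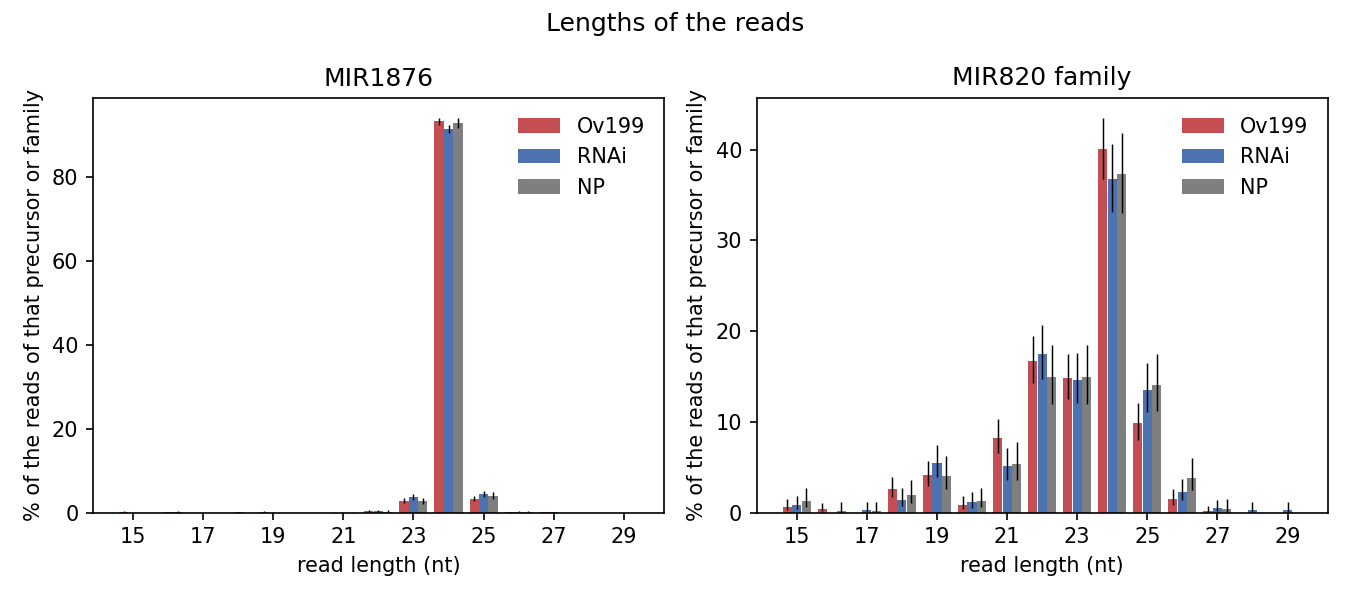
Read lengths (nt) of MIR1876 and of the MIR820 family, as percent of their reads in Ov199, RNAi and NP, with 95% Wilson intervals as error bars. MIR1876 has a single peak at 24 nt with 91.4 to 93.3% of its reads, whereas MIR820 has its highest point at 24 nt (36.8 to 40.1%) with 22 nt reads at 14.9 to 17.5%.

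The ends of MIR1876 were sharp. The first base lay at position 111 in 94.9% of its reads in Ov199, 93.7% in RNAi and 94.3% in NP, and the last base lay at position 134 in 98.1%, 97.3% and 98.2%. The 5′ end was therefore somewhat more variable than the 3′ end. The single sequence aTAAGTGGgtttgtgggctggccc was read 3097 times in Ov199, 2756 times in RNAi and 1780 times in NP, or 91.1%, 89.1% and 90.5% of the precursor's reads. It began with A, as did 7812 of the 7827 reads of 24 nt over the 3 libraries.

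All but 3 of the 8459 reads of MIR1876 lay within positions 108 to 146. The exceptions were 1 read of 15 nt at positions 34 to 48 in Ov199 and 2 reads of 23 nt at positions 58 to 80 in RNAi. A hairpin normally releases a partner from the opposite arm (the passenger strand), and at this depth hardly any candidate for it was read. The length of the precursor was not used here, so the arm that holds the 24 nt form was not assigned.

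The shorter and longer forms shown above shared the 3′ end at position 134. The 23 nt form that begins 1 base later, tAAGTGGGtttgtgggctggccc, was read 72 times in Ov199, 91 times in RNAi and 41 times in NP, and the 22 nt form aAGTGGGTttgtgggctggccc 10, 7 and 3 times. Shifting the first base shifts the seed, so these forms do not share the seed of the 24 nt species. The 23 nt form was higher in RNAi than in NP at 1.74-fold (adjusted p = 0.0181 by Fisher's exact test) and higher in RNAi than in Ov199 at 1.89-fold (adjusted p = 0.000705 by Fisher's exact test). The 24 nt species itself was 1.22-fold and 1.34-fold in the same comparisons (adjusted p = 1.37e-09 and 2.48e-27 by Fisher's exact test), and 0.912-fold in Ov199 against NP (adjusted p = 0.0124 by Fisher's exact test), which was 1.08-fold relative to the adapter-trimmed reads. When sequences with fewer than 10 reads were tested as well, the 23 nt form was no longer called for RNAi against NP, nor the 24 nt species for Ov199 against NP (adjusted p = 0.230 and 0.131 by Fisher's exact test). Whether the 23 nt form changed more than the 24 nt species was not tested.

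The reads of 25 nt fell into 2 kinds. Those that end at position 134 carried an added first base, which was G in 117 and T in 104 of 222 such reads over the 3 libraries. The form with T, tATAAGTGggtttgtgggctggccc, was deposited as an exact match and was read 35 times in Ov199, 41 times in RNAi and 27 times in NP. The form with G, gATAAGTGggtttgtgggctggccc, was deposited with a mismatch at its first base and was read 40, 44 and 33 times, so both were about equally frequent in each library. The 105 reads of 25 nt that begin at position 111 ended in A in 50, in C in 35 and in T in 19 cases. Within the 24 nt reads at 111 to 134, 2.18% in Ov199, 2.34% in RNAi and 2.41% in NP carried a mismatch.

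MIR820 reads came from both sides of the precursor. Counted in MIR820b positions, 38.1% of the family's reads in Ov199, 41.6% in RNAi and 37.3% in NP began at position 60 or before, with 95% Wilson intervals of 34.8 to 41.5%, 37.8 to 45.5% and 33.1 to 41.8%. Nearly all others began between positions 121 and 165, namely 61.0%, 57.3% and 61.2%. Between these regions only 3 reads were found in Ov199, 1 in RNAi and 2 in NP. The sequence of MIR820b was put together from its aligned reads, with recorded mismatches set back to the base of the precursor, which covered all but 2 of positions 1 to 211, and was folded with RNAfold. In the predicted hairpin 172 positions were paired, with an energy of -134.8 kcal per mol. Positions 15 to 36 paired with 176 to 197 and positions 151 to 174 with 38 to 61, which places the early region on the 5′ arm and the late one on the 3′ arm of this predicted fold.

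The arms differed in read length and first base. On the 5′ arm 22 nt reads were the most frequent, at 39.0% in Ov199, 37.2% in RNAi and 36.0% in NP, and 24 nt reads made up 17.7%, 11.9% and 16.0%. On the 3′ arm 24 nt reads led in both of its parts. Those that began at positions 121 to 145 were 24 nt long in 57.0%, 65.3% and 66.7% of cases, and those that began at positions 146 to 165 in 52.4%, 50% and 43.5%. The 22 nt reads of the later part were 0.338%, 2.07% and 2.50% of its reads. Over both parts and the 3 libraries, no 95% Wilson interval of the 22 nt share on the 3′ arm reached above 12.8%, and none on the 5′ arm reached below 29.3%. Over the 3 libraries 66.4% of the reads of the 5′ arm began with T. On the 3′ arm 56.3% of those from positions 121 to 145 began with A, and 64.0% of those from positions 146 to 165 with G. By length, with the whole precursor pooled, 262 of 314 reads of 22 nt began with T (83.4%). Those of 24 nt began with G in 328 and with A in 309 of 727 cases.

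The leading 22 nt sequence, tCGGCCTCgtggatggaccagg at positions 15 to 36, was read 96 times in Ov199, 80 times in RNAi and 59 times in NP. The ratios were 0.854-fold in Ov199 against NP and 1.07-fold in RNAi against NP, with adjusted p = 0.594 and 0.934 by Fisher's exact test. In the predicted fold 20 of its 22 bases were paired. Reads that lay on the paired stretch, with a margin of 4 bases, numbered 4 in Ov199, 1 in RNAi and 3 in NP, so its opposite strand was rarely read.

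The leading 24 nt sequence, gAACTGCCttaaggaagtcgatgc at positions 151 to 174, was read 104 times in Ov199, 69 times in RNAi and 68 times in NP. Of its bases 22 were paired in the fold, and 1, 3 and 3 reads lay on the paired stretch. A second 24 nt sequence, aGGTCGGAacgaactgccttaagg at positions 141 to 164, was read 87, 57 and 40 times and overlaps the first. Another, gTGGAACCttgttaaggtcggaac at positions 127 to 150, was read 20, 17 and 13 times and ends immediately before position 151. These overlapping or adjoining sequences matched MIR820b and MIR820c only, whereas the 22 nt sequence and the leading 24 nt sequence matched all 3 copies.

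**Figure D3:**
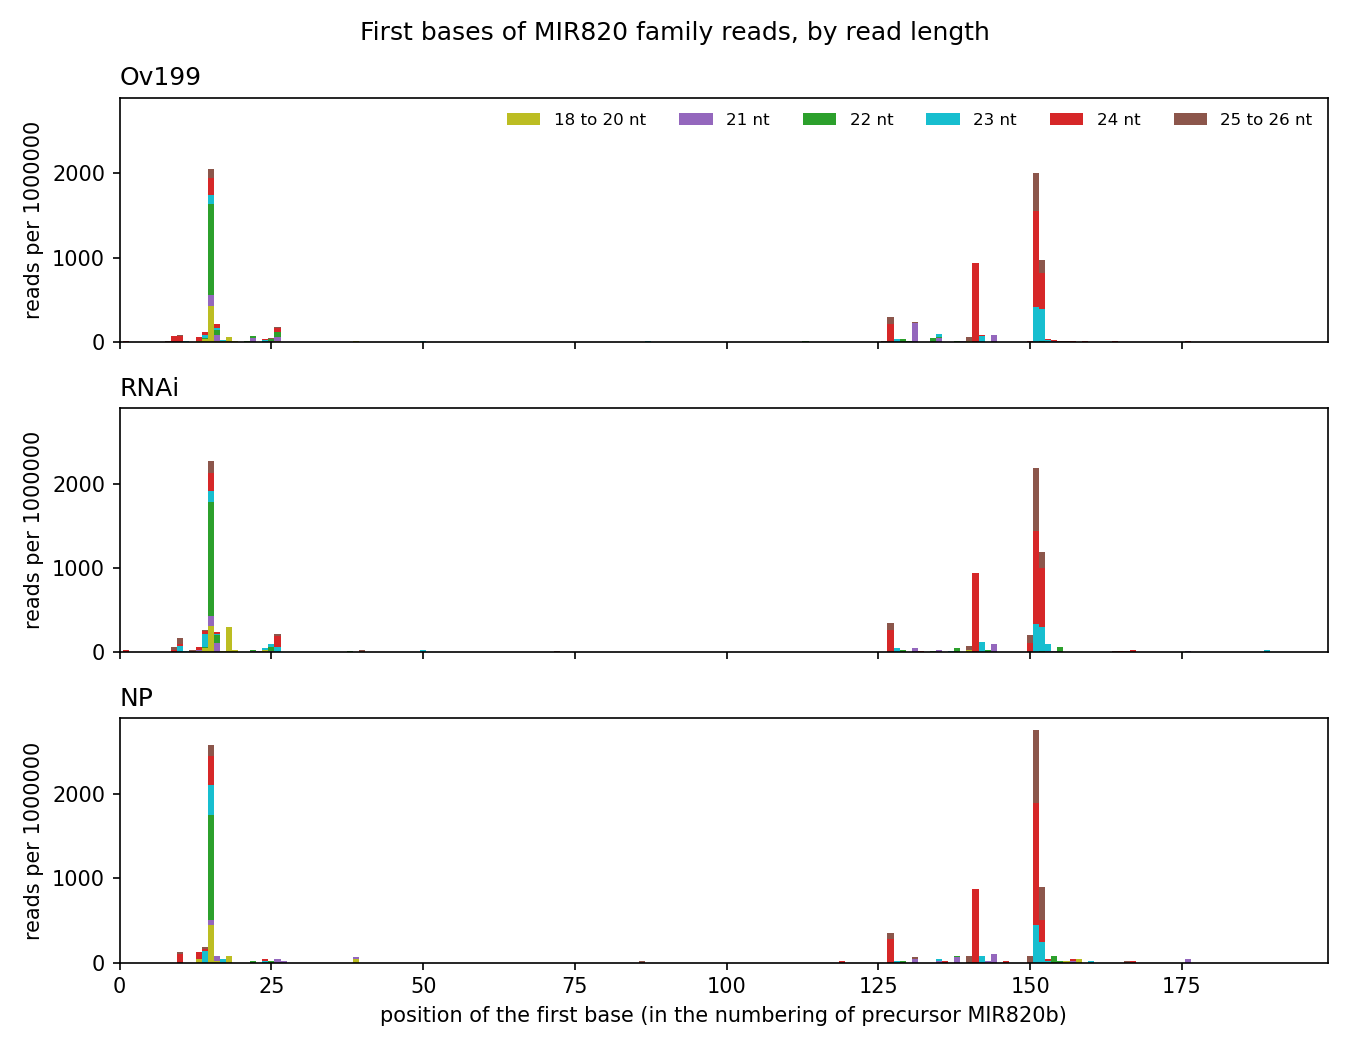
Reads of the MIR820 family by the position of their first base on MIR820b (nt from the start of the precursor) and by read length (colours, 18 to 26 nt), as reads per 1000000 aligned reads in panels for Ov199, RNAi and NP. Reads pile up at position 15, where 22 nt is the most frequent length, and at positions 141 and 151, where it is 24 nt. Only 1 to 3 reads per library begin at positions 61 to 120.

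Start positions were less uniform at MIR820 than at MIR1876. On the 5′ arm 63.6% of reads in Ov199, 54.4% in RNAi and 72.6% in NP began at position 15. On the 3′ arm 38.3%, 38.3% and 47.3% began at position 151. Over the 3 libraries 24 first positions were used on the 5′ arm and 38 on the 3′ arm.

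Seen by seed, the 21 MIR820 sequences that were the most read of their length or held at least 1% of a copy's reads fell into 11 seeds. The seed CGGCCTC of the 5′ arm was shared by 7 sequences of 18 to 25 nt, with 177 reads in Ov199, 131 in RNAi and 113 in NP. The seed AACTGCC of the 3′ arm was shared by 3 sequences of 23 to 25 nt, with 175, 124 and 114 reads. The seed ACTGCCT, which begins 1 base later, had 74, 65 and 41 reads, and GGTCGGA had 87, 57 and 40. Both leading seeds had about the same number of reads in every library.

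Single MIR820 sequences were then compared between the libraries. Of the 17 that had at least 10 reads in Ov199 and NP together, 2 were called (11.8%, beside 19% of all 879 sequences tested). Of 18 in RNAi against NP, 3 were called (16.7%, beside 19.2% of 730). Of 20 in RNAi against Ov199, 3 were called (15.0%, beside 21.5% of 943). These shares lay below the background, but with so few and overlapping sequences this was not read as a difference from it. All calls but 1 were lost when sequences with fewer reads were also tested.

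The sequence aACTGCCTtaaggaagtcgatgct at positions 152 to 175 was read 35 times in Ov199, 43 times in RNAi and 13 times in NP. It was higher in RNAi than in NP at 2.54-fold (adjusted p = 0.0122 by Fisher's exact test) and than in Ov199 at 1.82-fold (adjusted p = 0.0386 by Fisher's exact test), whereas Ov199 against NP gave 1.40-fold (adjusted p = 0.600 by Fisher's exact test). The difference from Ov199 was 1.61-fold with TMM and was then not called (adjusted p = 0.128 by Fisher's exact test). Its neighbour that begins 1 base earlier, gAACTGCCttaaggaagtcgatgc, was at 0.800-fold in RNAi against NP and 0.996-fold in RNAi against Ov199. Whether the 2 neighbours differed from each other in response was not tested.

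The 25 nt sequence aACTGCCTtaaggaagtcgatgctc, which matched MIR820a and MIR820c, was read 4 times in Ov199, 4 times in RNAi and 16 times in NP. It was lower in Ov199 than in NP at 0.157-fold (adjusted p = 0.000417 by Fisher's exact test) and in RNAi than in NP at 0.221-fold (adjusted p = 0.00978 by Fisher's exact test). It was thus an uncommon form that stood highest in NP, and its call in Ov199 was the one kept when sequences with fewer reads were also tested. The sequence was named, and had enough reads for a test, only through its NP reads. Its comparisons with NP are therefore not independent of its choice.

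On the 5′ arm the 23 nt form tCGGCCTCgtggatggaccagga was read 10 times in Ov199, 8 times in RNAi and 17 times in NP, and it was lower in Ov199 than in NP at 0.328-fold (adjusted p = 0.0227 by Fisher's exact test). The 19 nt form gCCTCGTGgatggaccagg was read 6, 16 and 2 times. It was higher in RNAi than in NP, with a ratio of 6.29 (95% exact interval, 1.48 to 56.4, adjusted p = 0.0238 by Fisher's exact test), and than in Ov199 at 3.60-fold (adjusted p = 0.0210 by Fisher's exact test). The wide interval reflects the 2 reads in NP. This 19 nt form reached the 1% of reads needed to be named only through its RNAi reads, so its comparisons with RNAi are not independent of its choice. The 21 nt form of the leading sequence, tCGGCCTCgtggatggaccag, was read 11, 7 and 2 times, and its ratio in Ov199 against NP was 2.88 (0.629 to 26.8, adjusted p = 0.480 by Fisher's exact test).

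On the 3′ arm the most read 21 nt sequence of the family was aACCTTGTtaaggtcggaact, with 19 reads in Ov199, 1 in RNAi and 2 in NP. It was lower in RNAi than in Ov199, with a ratio of 0.0790 (95% exact interval, 0.0019 to 0.497, adjusted p = 0.00656 by Fisher's exact test). The sequence was named, and had enough reads for a test, only through its Ov199 reads. Its comparisons with Ov199 are therefore not independent of its choice. Ov199 against NP gave a ratio of 4.98 (1.20 to 44.1, adjusted p = 0.0832 by Fisher's exact test). This sequence was deposited with a mismatch at its last base, and its exact form, aACCTTGTtaaggtcggaacg, had 3, 2 and 0 reads. A 21 nt sequence of that arm without a mismatch, tCGGAACGaactgccttaagg, had 8, 6 and 5 reads. The mismatched sequence held 19 of the 37 reads of 21 nt that began at positions 121 to 145 in Ov199.

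**Figure D4:**
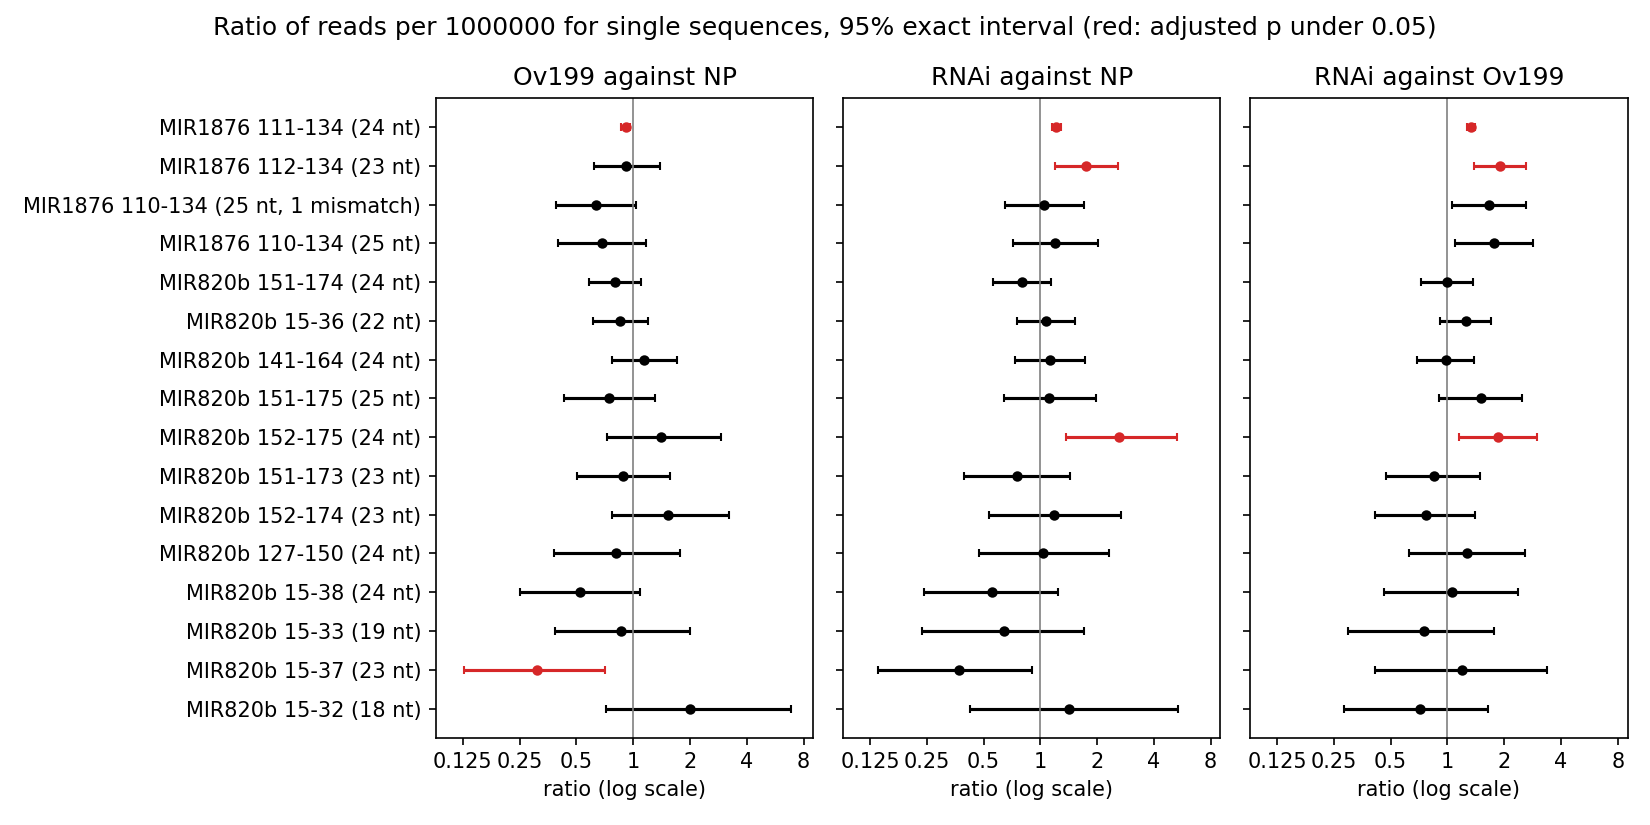
Ratio of reads per 1000000 aligned reads (log scale) for the named MIR1876 and MIR820b sequences with at least 30 reads, with 1 panel each for Ov199 against NP, RNAi against NP and RNAi against Ov199, with 95% exact intervals and red for an adjusted p under 0.05. The 24 nt MIR1876 species has the narrowest intervals, at 0.912, 1.22 and 1.34-fold, and most intervals of MIR820 sequences span 1.

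Other known precursors with mostly 24 nt reads were set beside the members. There were 22 with at least 50 reads of which at least 50% were 24 nt long. Their median log2 fold for Ov199 against NP was -0.36, beside -0.01 over all precursors. For RNAi against NP it was -0.03, beside 0.06, and for RNAi against Ov199 it was 0.32, beside 0.04. Over the 236, 212 and 249 precursors with at least 50 reads, the medians in these comparisons were 0.01, 0.06 and 0.02. By adjusted p, 0 of the 22 were called higher and 7 lower for Ov199 against NP, where 7.34% of all precursors were called higher and 9.56% lower. For RNAi against NP 1 was called higher and 3 lower, beside 7.76% and 5.22%. For RNAi against Ov199 3 were called higher and 0 lower, beside 11.9% and 7.67%. The shares over all precursors include those with few reads, which are less readily called, so they are not a matched background. Several of the 22 are copies of the MIR812 and MIR1862 families and are not independent. Scaling to adapter-trimmed reads in place of aligned reads added 0.24 to every log2 ratio for Ov199 against NP and -0.27 to every one for RNAi against Ov199. Both shifts are opposite in sign to the medians of the 22.

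Within that list MIR1882e stood furthest from 1. It had 0 reads in Ov199, 216 in RNAi and 65 in NP. Against the limit of 3 reads for Ov199, the level in this library was at least 41.3-fold lower than the NP level, and the RNAi level at least 108-fold higher than that of Ov199. It was also the highest in RNAi against NP, at 2.60-fold. MIR1874, with 48, 17 and 14 reads, was the highest in Ov199 against NP at 1.77-fold and the lowest in RNAi against Ov199 at 0.541-fold. Neither of these MIR1874 differences was called (adjusted p = 0.213 and 0.0958 by Fisher's exact test). MIR5145, with 21, 12 and 25 reads, was the lowest in RNAi against NP at 0.390-fold. These were named because they are the ends of the list, and MIR1876 and MIR820 lay closer to 1-fold in the comparisons where each was an end. Elsewhere this did not always hold: MIR1874 was 0.957-fold in RNAi against NP, where MIR1876 was 1.24-fold. MIR5145 was 0.864-fold in RNAi against Ov199, where MIR1876 was 1.37-fold. Others of the list, such as MIR1868, also moved little.

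The known precursors nearest to MIR1876 by their pair of log2 folds (Ov199 and RNAi, each against NP, Euclidean distance over 145 precursors with at least 100 reads) were MIR812i at 0.0989, MIR166b at 0.202 and MIR166a at 0.225. Those nearest to the MIR820 family were MIR166c at 0.0615, MIR1862d at 0.0715 and MIR1868 at 0.0737. The likeness rests on 2 values per precursor that share the NP library.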

How the data were processed

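Small RNA libraries of Ov199, RNAi and NP (1 each) were analysed. After quality filtering and adapter removal, the authors merged identical reads, aligned them to known and predicted rice precursors, and deposited an unnormalized read count for each distinct sequence, with its length and its first and last position on each precursor. The aligner's version and settings are not given in the sources used here. No genome was used, so precursors have no chromosomal position here. From the deposited counts, reads per precursor and per sequence were summed and scaled to 1000000 aligned reads, with a pseudocount of 10 for folds. Because a shared sequence counted at each precursor, copies of a family are not independent. Reads (2 libraries at a time) were compared by a two-sided Fisher's exact test, adjusted by Benjamini-Hochberg over all precursors with a read or all sequences with at least 10 reads, at 0.05. The test was checked on simulated data. The sequences compared were the most read of 21, 22 and 24 nt at each precursor and any with at least 1% of its reads; those shown were picked from them, and the exact form of the mismatched 21 nt sequence was added after its values were seen. The members and lists were chosen with earlier results of these data known. Alternatives were other pseudocounts, TMM, DESeq2 and adapter-trimmed scaling, scaling without MIR1876, read minimums, exact alignments, no single reads, split reads and reads of 20 to 24 nt. Python 3.11.15, scipy 1.17.1, pandas 2.3.3, RNAfold 2.7.2, edgeR 4.0.16 and DESeq2 1.42.0 were used.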

Additional observations from a re-analysis of the deposited data

How the results depend on the processing

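No paired analysis was possible because each line had 1 library. Values below are folds with Fisher's exact test, adjusted p in parentheses. MIR1876 in Ov199 against NP was 0.989 with TMM (0.887), 0.950 with DESeq2's size factors (0.249) and 1.07 relative to adapter-trimmed reads (0.0697), and its 24 nt sequence was 1.08 on that last scale (0.0445). The MIR820 family in RNAi against Ov199 was 1.04 with TMM (0.719), 1.13 with DESeq2's size factors (0.0833), 0.975 relative to adapter-trimmed reads (0.836), 1.14 with exact alignments (0.100) and 1.02 with reads of 20 to 24 nt (0.958), and MIR820b was 0.977 relative to adapter-trimmed reads (0.850). MIR1876 in RNAi kept its direction and call, at 1.11 to 1.25 against NP and 1.13 to 1.39 against Ov199. Precursors past 2-fold numbered 77, 78 and 83 with a pseudocount of 100, and 125, 116 and 153 with at least 10 reads, in Ov199 against NP, RNAi against NP and RNAi against Ov199 (294, 289 and 314 as reported). Precursors with an adjusted p under 0.05 numbered 54 with exact alignments, 57 with reads of 20 to 24 nt and 42 with split reads in RNAi against NP (92 as reported), and 86 with split reads in RNAi against Ov199 (143). Among the other values of single precursors and sequences, 554 stayed on their side of the threshold, 29 lost the call and 4 gained it. With 1 read worth 10.6 to 20.3 normalized counts, sequences with few reads have wide intervals.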
